A study of Mus musculus with 6 samples.

Results

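The neuronal pentraxins Nptx1 and Nptx2, the neuronal pentraxin receptor Nptxr and the related long pentraxin Ptx3 were examined in upper-layer astrocytes (ULAs) and deep-layer astrocytes (DLAs) of the mouse somatosensory cortex. The 4 genes were taken by symbol from the 43383 rows of the expression table. They were chosen with the ULA and DLA values already known, so their layer values are given as a description and were not tested. All libraries came from 4-week-old male mice carrying the Aldh1l1-eGFP transgene, in which the Aldh1l1 promoter drives GFP in astrocytes at large and not in a layer-specific subset. Upper layers (II–IV) and deep layers (V and VI) were cut apart, layer I, the meninges, the corpus callosum and the tissue around the border of layers IV and V were discarded, and GFP-positive cells were collected by flow cytometry. Each of 3 brains gave 1 ULA and 1 DLA library, 6 in all, and no other treatment or genotype was involved.

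Pentraxins are secreted or membrane-bound proteins that share a carboxy-terminal pentraxin domain and assemble into multimers. The neuronal pentraxins are best known from neurons, where Nptx1 and Nptx2 are released, bind each other and the membrane-anchored Nptxr, and gather AMPA-type glutamate receptors at excitatory synapses. Nptx2 is also known as Narp, a product induced by synaptic activity, and Ptx3 is a pattern recognition molecule of innate immunity that binds complement and organizes hyaluronan matrix.

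The genes are related, and the libraries were read in stretches of only 36 bases, so the closest coding stretches of that length are shown to let the distance between the genes be seen. The sequences come from the GENCODE transcripts of the GRCm38 build, each is written from 5′ to 3′ on the strand of its gene, and capitals mark the bases at which the members of a pair differ. The first pair lies in exon 1 of both genes, at chr5:144546253-144546288 (plus strand) for Nptx2 and chr11:119547383-119547418 (minus strand) for Nptx1.
Nptx2: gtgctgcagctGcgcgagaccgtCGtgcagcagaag
Nptx1: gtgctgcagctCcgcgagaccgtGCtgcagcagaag
The next pair also lies in exon 1 of both genes, at chr5:144546314-144546349 (plus strand) for Nptx2 and chr15:79804115-79804150 (minus strand) for Nptxr.
Nptx2: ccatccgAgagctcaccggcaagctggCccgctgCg
Nptxr: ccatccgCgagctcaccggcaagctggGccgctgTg
The last pair lies in exon 5 of Nptx2, at chr5:144556224-144556259 (plus strand), and in exon 3 of Ptx3, at chr3:66225065-66225100 (plus strand).
Nptx2: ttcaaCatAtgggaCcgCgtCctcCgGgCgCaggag
Ptx3: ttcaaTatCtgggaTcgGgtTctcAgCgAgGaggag

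The closest stretches of Nptx2 and Nptx1 differed at 3 of 36 bases, those of Nptx2 and Nptxr at 3, those of Nptx1 and Nptxr at 6, and those of Nptx2 and Ptx3 at 9. The longest run of identical bases shared with Nptx2 was 16 bases in Nptx1, 19 in Nptxr and 15 in Ptx3. No window of 36 bases was identical in any pair of the 4 genes. Against all other transcripts, 0 of 2501 windows of Nptx2 and 0 of 1863 windows of Ptx3 had an identical copy in another gene, and 9 of 5182 windows of Nptx1 (0.174%) had one. For Nptxr the figure was 877 of 4913 windows (17.9%), of which 857 lay in the GENCODE transcripts of Npcd, a gene that overlaps it and that the mm9 annotation of the expression table draws differently.

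Nptx2 is on chromosome 5 of the mm9 build (plus strand, 145306756 to 145318347), with 5 exons. Its RPKM, that is, reads per kb of mRNA and per M mapped reads, was 42.05 in brain 1, 37.31 in brain 2 and 37.87 in brain 3 for ULAs. In the DLAs of the same brains it was 9.33, 11.86 and 9.38. All 3 ULA libraries were above all 3 DLA libraries, with a wide gap between the lowest ULA and the highest DLA value. The ULA mean was 39.1 ± 2.59 RPKM and the DLA mean 10.2 ± 1.45 (SD, n = 3 each).

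The ratio of ULA to DLA for Nptx2 was 4.51 in brain 1, 3.15 in brain 2 and 4.04 in brain 3, with a mean of 3.9 ± 0.691 (SD, n = 3). On the log2(RPKM + 1) scale, which is used for all differences given here, the upper minus deep difference was 2.06, 1.57 and 1.90, with a mean of 1.85 ± 0.25 (SD, n = 3). Brain 2 gave the smallest difference, and its DLA library held the highest of the DLA values. The spread between libraries was therefore small against the layer difference, with a coefficient of variation of 6.63% in ULAs and 14.2% in DLAs. These values rested on 2623, 2439 and 2580 reads in ULAs and 633, 595 and 708 reads in DLAs, recovered from the RPKM steps. Pooled over the 3 brains, the level was 39.0 RPKM in ULAs (95% exact Poisson interval 38.2 to 39.9) and 10.01 in DLAs (9.57 to 10.5). Such intervals cover counting error only.

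Among all rows above 0, the mean of Nptx2 stood at percentile 92.9 in ULAs and at percentile 77.8 in DLAs. Put as ranks, 1997 rows were higher than Nptx2 in the ULA means and 6216 were higher in the DLA means. Of the 13999 rows with a mean of at least 1 RPKM, 3 had a larger upper minus deep difference, namely Chrdl1, Cntnap2 and Lef1. The libraries are bulk RNA of many sorted cells, so fewer cells containing Nptx2 mRNA and less of it per cell cannot be told apart.

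**Figure D1:**
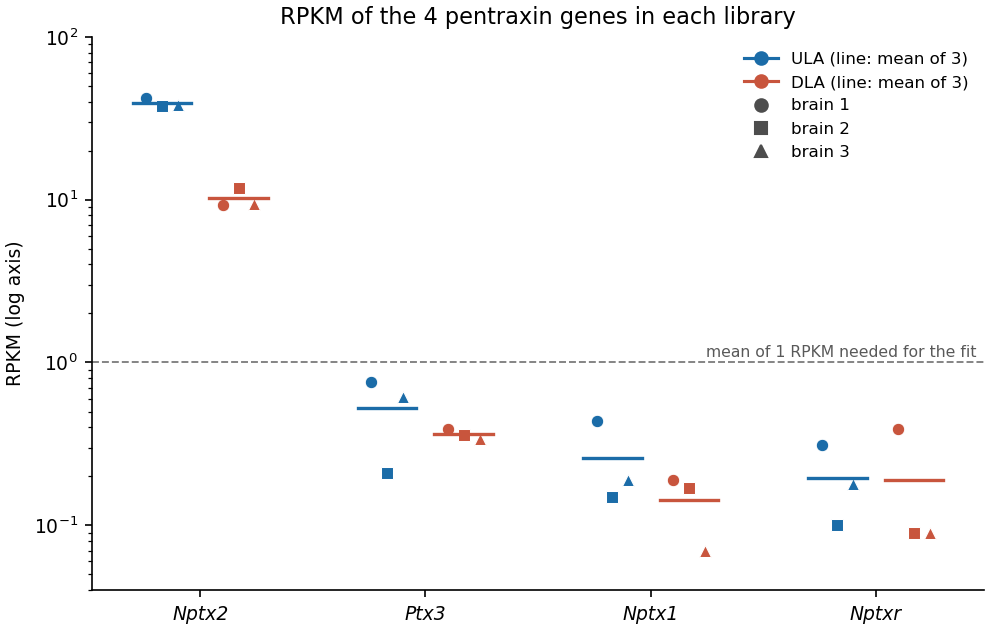
RPKM (log axis) of Nptx2, Ptx3, Nptx1 and Nptxr in each library, with ULAs in blue, DLAs in red, a marker shape for each brain and a line at the mean of 3 libraries. Nptx2 lies between 37.31 and 42.05 in ULAs and between 9.33 and 11.86 in DLAs, whereas every value of the other genes is under 1 RPKM and their layers overlap.

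Nptx1 is on chromosome 11 of mm9 (minus strand, 119400033 to 119409134), with 5 exons. Taking the brains in order, ULA libraries held it at 0.44, 0.15 and 0.19 RPKM and DLA libraries at 0.19, 0.17 and 0.07. The layers overlapped, and the highest value was that of the ULAs of brain 1. Nptx1 averaged 0.26 ± 0.157 RPKM across ULA libraries and 0.143 ± 0.0643 across DLA libraries (SD, n = 3 each). The upper minus deep difference was 0.28, -0.02 and 0.15 in the 3 brains, with a mean of 0.13 ± 0.15 (SD, n = 3), so it was above 0 in 2 of 3 brains. The spread was as large as the difference. With a pseudocount of 0.1 in place of 1 the mean difference was 0.52, and the ratios of ULA to DLA were 2.32, 0.88 and 2.71. Only 106 reads in ULAs and 57 reads in DLAs lay behind these values. Pooled levels were 0.261 RPKM (95% exact Poisson interval 0.214 to 0.316) in ULAs and 0.142 (0.108 to 0.184) in DLAs, intervals that did not overlap but that leave out the spread between brains. Of the 106 ULA reads 57 came from brain 1.

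Nptxr, the membrane-anchored partner, is on chromosome 15 of mm9 (minus strand, 79616781 to 79635139), with 5 exons. In ULAs it was at 0.31, 0.10 and 0.18 RPKM, and in DLAs at 0.39, 0.09 and 0.09. Brain 1 was the highest in both layers, and the layers overlapped. The mean level was 0.197 ± 0.106 RPKM for ULAs and 0.19 ± 0.173 for DLAs (SD, n = 3 each), and the differences of -0.09, 0.01 and 0.11 averaged 0.01 ± 0.10 (SD, n = 3). Each layer had 75 reads in all, which put the pooled level at 0.197 RPKM (95% exact Poisson interval 0.155 to 0.247) in ULAs and 0.2 (0.157 to 0.251) in DLAs. Brain 1 held 38 of the 75 ULA reads and 52 of the 75 DLA reads, a spread between brains that these intervals leave out. A layer difference in Nptxr was not tested.

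Ptx3 is on chromosome 3 of mm9 (plus strand, 66023809 to 66029728), with 3 exons. It was at 0.76, 0.21 and 0.61 RPKM in ULAs and at 0.39, 0.36 and 0.34 in DLAs. The DLA values lay close together, and the ULA values lay on both sides of them, above in brains 1 and 3 and below in brain 2. This gave means of 0.527 ± 0.284 RPKM for ULAs and 0.363 ± 0.0252 for DLAs (SD, n = 3 each). The differences of 0.34, -0.17 and 0.26 averaged 0.15 ± 0.27 (SD, n = 3), less than their spread. The mean was 0.31 with a pseudocount of 0.1, 0.05 without brain 1 and 0.30 without brain 2. The 79 reads in ULAs and 54 in DLAs gave pooled levels of 0.535 RPKM (95% exact Poisson interval 0.424 to 0.667) and 0.371 (0.278 to 0.484), and these intervals overlapped.

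The layers did not overlap for 1 of the 4 genes, Nptx2. Of the 27963 rows above 0 in any library, 5.27% had all 3 ULA libraries above all 3 DLA libraries, and 11.2% had layers that did not overlap in either direction. Since the genes were chosen on this comparison, nothing is read from the count. The same gene was the only member with a mean of at least 1 RPKM, the level required for the fit across rows.

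Compared per length within each library, Nptx2 was the highest of the 4 in 6 of 6 libraries. It made up 96.5%, 98.8% and 97.5% of their summed RPKM in the ULA libraries, in order of brain, and 90.6%, 95.03% and 94.9% in the DLA libraries. It was 55.3, 177.7 and 62.1 times as high as the next member in ULAs and 23.9, 32.9 and 27.6 times in DLAs. The lower 3 genes were much closer to each other. Ptx3 stood above Nptx1 and Nptx1 above Nptxr in every ULA library, but their ranges over the 3 ULA libraries overlapped. In DLAs the order below Nptx2 was Nptxr, Ptx3, Nptx1 in brain 1, Ptx3, Nptx1, Nptxr in brain 2 and Ptx3, Nptxr, Nptx1 in brain 3. There, the values of Ptx3 and Nptx1 did not overlap, and those of Nptxr overlapped both.

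How reads were counted was checked on nested genes. Among 588 pairs of rows in which a gene lies inside another without a shared exon base (300 on the same strand and 288 on opposite strands), the outer row held at least as many reads as the inner row in all 6 libraries in 588 of 588 pairs. Row values were therefore read as including reads from anywhere between the start and the end of a gene, introns and either strand included, over a length that counts the mRNA alone. Introns make up 9041 bases of the span of Nptx2 against an mRNA of 2551 bases, 3818 against 5284 for Nptx1, 13410 against 4949 for Nptxr and 3998 against 1922 for Ptx3. How many of the reads of each gene were intronic was not tested.

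Nptx2 had no overlapping row, and the nearest row, 75873, lay 128 bases away on the opposite strand at 0 to 0.34 RPKM. For Nptx1 the nearest row was Gm11762, 809 bases away on the opposite strand at 0 to 0.14 RPKM. Ptx3 lies within Veph1, on the opposite strand and without a shared exon base. Veph1 was at 0.35, 0.10 and 0.34 RPKM in ULAs and 0.16, 0.18 and 0.22 in DLAs, so that both genes were lowest in brain 2 among the ULAs. The reads of Ptx3 are also counted in the Veph1 row, and the strand of origin cannot be told apart. In ULAs the Ptx3 row held 36, 11 and 32 reads and the Veph1 row 46, 14 and 49. The low value of Veph1 in brain 2 is therefore not separate from that of Ptx3. These neighbours, and Npcd and Cbx6 below, were chosen after their values were seen.

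Nptxr lies within Npcd, on the same strand, and 4214 of its 4949 exon bases (85.1%) are also exon bases of Npcd in the mm9 annotation of the table, a larger share than the GENCODE windows above gave. Npcd was at 6.53, 5.74 and 5.79 RPKM in ULAs and 5.27, 5.07 and 4.93 in DLAs, many times the level of Nptxr. The span of Npcd also holds Cbx6, which encodes a Polycomb-type chromobox protein. Of the reads in the Npcd row, the Cbx6 row held 91.5% to 97.5% and the Nptxr row 1.86% to 7.6%, and the 2 rows together held 97.0% to 100.01%. Few reads of the Npcd row were thus left outside the rows of Cbx6 and Nptxr.

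**Figure D2:**
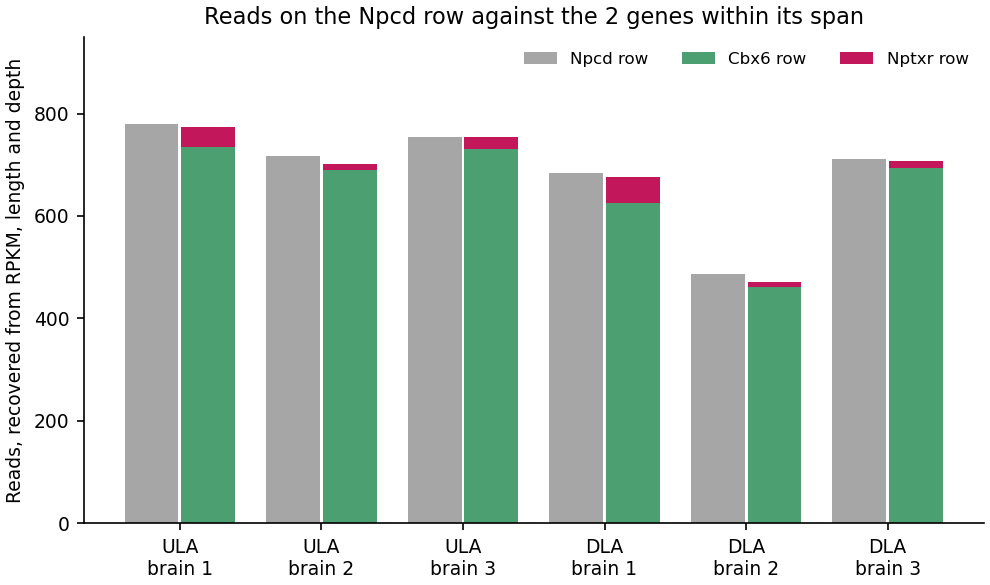
Reads (linear axis from 0) on the Npcd row in grey and on the Cbx6 and Nptxr rows, stacked in green and magenta, for each library. The stack reaches between 97.0% and 100.01% of the Npcd bar, and Nptxr makes up at most 7.6% of it.

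The rows nearest to Nptx2 were found among 11474 other RefSeq rows by the root mean square distance between profiles of log2(RPKM + 1) over the 6 libraries, each centred on its own mean. The median distance over these rows was 0.956. The nearest row was Cntnap2, a contactin-associated cell adhesion protein, at a distance of 0.190, with 3.79, 3.72 and 4.98 RPKM in ULAs and 0.39, 0.34 and 0.43 in DLAs. Lef1, a transcription factor of Wnt signalling, came next at 0.213, with 18.85, 21.13 and 18.12 RPKM in ULAs and 4.37, 4.09 and 5.46 in DLAs. All ULA values of both rows were above all DLA values, as in Nptx2. The rows were chosen for nearness to its profile, so this separation follows from the choice.

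Eogt, an enzyme that adds N-acetylglucosamine to extracellular EGF domains, was at a distance of 0.238, with 141.75, 118.67 and 117.02 RPKM in ULAs and 43.27, 36.94 and 45.21 in DLAs. Chrdl1, a secreted BMP antagonist, was at 0.273, with 96.35, 80.32 and 91.84 RPKM in ULAs and 18.68, 17.05 and 24.48 in DLAs. Hmgcll1, a lyase of ketone body metabolism, was at 0.323, with 5.22, 4.16 and 4.70 RPKM in ULAs and 0.88, 0.60 and 1.52 in DLAs, and the next row was at 0.325. Mean upper minus deep differences of the 5 rows ran from 1.53 to 2.11, around the 1.85 of Nptx2, which also follows from the choice. In the DLAs of brain 2 Nptx2 was at its highest DLA value, whereas each of the 5 rows was at its lowest there.

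**Figure D3:**
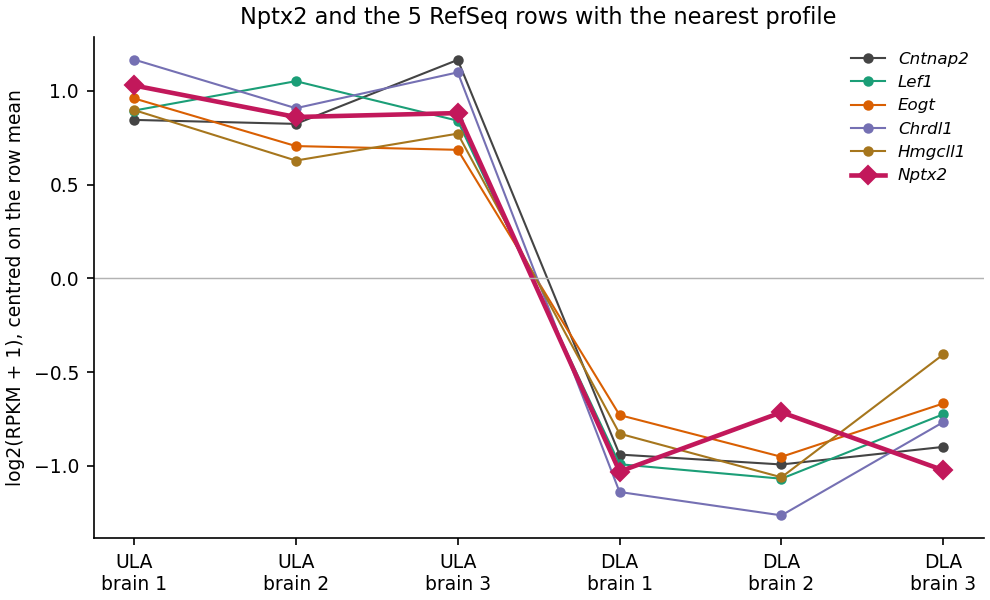
Profiles of log2(RPKM + 1), centred on the mean of each row, over the 6 libraries for Nptx2 (magenta diamonds) and the 5 RefSeq rows nearest to it. All 6 lines are above 0 in ULAs and below 0 in DLAs, which follows from choosing rows near to Nptx2. Nptx2 turns up in the DLAs of brain 2, where the others are lowest.

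The libraries held 24.4 to 26.7 M reads in ULAs and 19.7 to 29.6 M in DLAs, and log2 values correlated between libraries at r of 0.969 to 0.985 over 13999 rows. Astrocyte markers were abundant throughout, with a summed RPKM over 10 genes of 11472.8 to 12441.1 in ULAs and 10884.7 to 11695.4 in DLAs. Oligodendrocyte markers summed to 35.76 to 107.54 RPKM in ULAs and 105.31 to 205.67 in DLAs, and 5 of 5 tested were higher in DLAs in the limma fit described below for the pathway lists. In the same fit 1 of 10 astrocyte markers, Gfap, was higher in DLAs (difference -0.93, limma adjusted p = 0.00556). Of 4 mural cell markers, with a sum of 15.12 to 21.88 RPKM in ULAs and 11.24 to 17.92 in DLAs, 2 were tested. Rgs5 was higher in ULAs, the direction of Nptx2 (difference 0.77, limma adjusted p = 0.0455, higher in 3 of 3 brains). Pdgfrb, which made up most of the sum, had overlapping layers (difference 0.08, limma adjusted p = 0.790). The part of mural cells in the Nptx2 values was not tested.

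Since neurons are the known source of neuronal pentraxins, neuronal markers stand beside these levels. The sum over 9 general neuronal markers was 9.02 to 10.55 RPKM in ULAs and 7.13 to 9.25 in DLAs, with 7 of 9 under 1 RPKM and none at 0 in all libraries. Snap25 and Syn1 made up most of this sum. Of the low markers, Rbfox3 was at 0.40, 0.29 and 0.25 RPKM in ULAs and 0.15, 0.23 and 0.07 in DLAs. Tubb3 was at 0.20, 0.38 and 0.42 in ULAs and 0.17, 0.08 and 0.09 in DLAs. Both, picked after their values were seen and not tested, were without overlap and higher in ULAs, as was Nptx2. Of the same list, Actl6b was lower in the ULAs of each brain (0.25, 0.25 and 0.31 RPKM against 0.29, 0.32 and 0.67). Nefl had a lower mean in ULAs (0.39 against 0.477 RPKM) but was higher there in 2 of 3 brains. Excitatory neuron markers (3 of 3 under 1 RPKM) summed to 0.36 to 0.54 in ULAs and 0.61 to 0.72 in DLAs. Among them Slc17a7, at 0.48, 0.30 and 0.49 in ULAs and 0.57, 0.60 and 0.61 in DLAs, was without overlap and higher in DLAs. Interneuron markers (6 of 6 under 1 RPKM) summed to 0.26 to 0.38 in ULAs and 0.34 to 0.64 in DLAs. In each ULA and each DLA library Nptx2 alone was above the sum of all general neuronal markers. In DLAs it was at 9.33 to 11.86 RPKM, against a sum of 7.13 to 9.25.

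Among markers of upper-layer neurons, Rorb, which astrocytes also contain, made up nearly all of a sum of 110.65 to 111.52 RPKM in ULAs and 76.47 to 121.16 in DLAs. The other 4 were under 1 RPKM, and among them Calb1 and Lamp5, picked after their values were seen, were separated by layer. Calb1 was at 0.46, 0.28 and 0.54 RPKM in ULAs and 0.07, 0 and 0 in DLAs. Lamp5 was at 0.52, 0.49 and 0.83 in ULAs and 0.03, 0.17 and 0.01 in DLAs, so both had their higher values in the same layer as Nptx2, at far lower levels, and neither was tested. Cux2, of the same list, averaged 0.427 RPKM in ULAs and 0.423 in DLAs. Deep-layer neuron markers summed to 21.61 to 28.48 RPKM in ULAs and 19.18 to 31.70 in DLAs, nearly all of it Tle4 and Fezf2, with 5 of 7 under 1 RPKM and Bcl11b at 0 in all libraries. The part of neuronal RNA in the values of Nptx2, Nptx1 and Nptxr was not tested.

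Other cells that can hold Ptx3 were represented by marker sums far below that of astrocytes. The fibroblast and microglial sums were nevertheless above Ptx3 itself, which was at 0.21 to 0.76 RPKM over the 6 libraries. Markers of neutrophils summed to at most 0.07 RPKM in ULAs and 0.16 in DLAs, with S100a9 at 0 in all libraries, and those of endothelial cells to 0.42 to 0.76 and 0.28 to 1.57. Fibroblast markers summed to 3.07 to 4.10 RPKM in ULAs and 4.95 to 6.27 in DLAs, most of it Col1a1, with 4 of 5 under 1 RPKM and Col3a1 at 0 in all libraries. Microglial markers summed to 12.67 to 13.52 RPKM in ULAs and 8.31 to 10.98 in DLAs, nearly all of it P2ry12. The layers did not overlap in the fibroblast and microglial sums, while Ptx3 did overlap, and the part of these cells in its level was not tested.

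**Figure D4:**
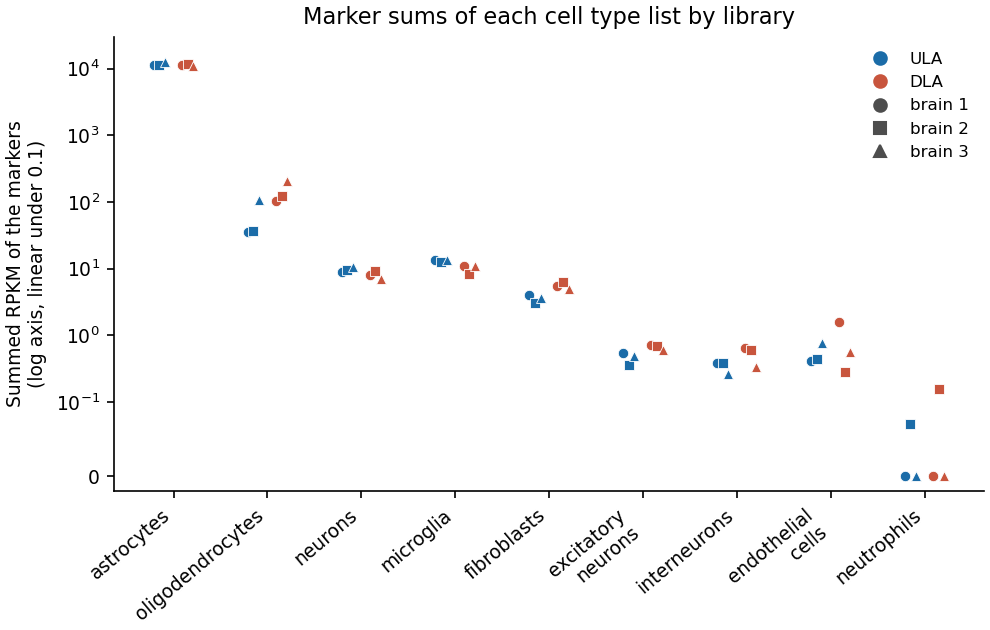
Summed RPKM of the markers of 9 cell types (log axis, linear under 0.1) in each library, with ULAs in blue, DLAs in red and a marker shape for each brain. Astrocyte sums are at least 10884.7 in all 6 libraries, and neuron sums stay between 7.13 and 10.55.

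The pathway around the 4 genes was taken from fixed lists of 83 genes, of which 81 were matched to a row. The unmatched genes were Adgrd2 and Adgrg4. Of the matched genes, 11 were at 0 in all libraries, 47 had a mean under 1 RPKM (those at 0 included) and 34 were tested. By limma on log2(RPKM + 1) with brain and layer as terms, 1 of the 34 was higher in ULAs and 0 were higher in DLAs at a Benjamini-Hochberg adjusted p under 0.05, and 6 had an unadjusted p under 0.05. Of all 13999 rows, 790 higher in ULAs and 1505 higher in DLAs had an unadjusted p under 0.05, a share close to that of the 34 genes. At the adjusted threshold, 100 rows (0.714%) were higher in ULAs and 128 (0.914%) were higher in DLAs (1.63% in all), or 138 and 103 after quantile normalization. The share in all moved to 0.293% without brain as a term and to 7.95% without brain 3. The median upper minus deep difference was 0.10 over the 34 genes and -0.03 over all tested rows.

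The other proteins with a pentraxin domain were near the detection limit. Of 8 matched, 4 were at 0 in all libraries and all were under 1 RPKM, and their sum was 0.14 to 0.34 RPKM in ULAs and 0.26 to 0.43 in DLAs. Among the matched genes with this domain, Nptx2 was accordingly the only gene with a mean of at least 1 RPKM.

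AMPA receptor pore subunits, the glutamate receptor proteins that neuronal pentraxins gather, did not pass the test in either direction. Gria2, the most abundant, was at 120.69, 127.08 and 104.26 RPKM in ULAs and 135.46, 118.75 and 127.33 in DLAs, with overlapping layers (difference -0.12, limma adjusted p = 0.615). Gria1 was at 1.23, 2.2 and 1.80 RPKM in ULAs and 2.11, 3.23 and 3.36 in DLAs, lower in the ULAs of each brain but with a limma adjusted p of 0.133 (difference -0.51, SE 0.15). Gria3, at 0.99, 1.28 and 0.70 RPKM in ULAs and 0.31, 0.41 and 0.26 in DLAs, had a mean under 1 RPKM and was not tested, although its layers did not overlap. Gria4 was between 0.03 and 0.13 RPKM in all libraries and was not tested either.

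Among 15 auxiliary proteins of AMPA receptors, 9 were tested and 1 was higher in ULAs. This was Shisa9 (CKAMP44), which binds the receptor and shapes its desensitization. It was at 13.89, 12.40 and 11.22 RPKM in ULAs and 9.11, 7.66 and 7.4 in DLAs, without overlap. The difference was 0.58 (SE 0.12, limma adjusted p = 0.0404), far below that of Nptx2. The adjusted p of Shisa9 ran from 0.0116 to 0.338 over 11 alternatives and was under 0.05 in 5 of them. It was 0.197 without brain 1, 0.0751 without brain 2 and 0.199 without brain as a term. Cacng8, the most abundant auxiliary protein and a transmembrane AMPA receptor regulatory protein, was at 42.84, 48.90 and 44.41 RPKM in ULAs and 43.74, 49.28 and 49.90 in DLAs (difference -0.07, limma adjusted p = 0.782).

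Nptxr can be cut from the membrane by the metalloprotease Adam17, and 4 of 5 genes of this shedding route were tested with 0 calls. Adam17 was at 12.82, 13.66 and 11.87 RPKM in ULAs and 12.95, 10.32 and 9.36 in DLAs, with overlapping layers (difference 0.22, limma adjusted p = 0.408). It was thus present at a level far above that of Nptxr in each library. Timp3, an inhibitor of such proteases, was at 142.79, 137.78 and 115.46 RPKM in ULAs and 129.64, 102.00 and 115.08 in DLAs (limma adjusted p = 0.409). Rhbdf1, which is needed for the maturation of Adam17, had the widest difference of the list at 0.25 (limma adjusted p = 0.346).

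Glypicans secreted by astrocytes can release Nptx1 from axons through receptor-type phosphatases, and 5 of 5 genes of this route were tested with 0 calls. Gpc6 was at 35.53, 52.65 and 37.00 RPKM in ULAs and 33.88, 37.55 and 42.01 in DLAs (difference 0.12, limma adjusted p = 0.687). Ptprf, a phosphatase of the same family as Ptprd and Ptprs, had the widest difference at 0.25 (limma adjusted p = 0.379).

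Genes that act with or upstream of Ptx3 also gave 0 calls. None of 8 complement genes reached 1 RPKM, with a sum of 1.30 to 1.74 in ULAs and 0.91 to 1.5 in DLAs and C3 at 0 in all libraries. Of 7 matrix partners 4 were tested, and the most abundant, Itih3, a heavy chain that is linked to hyaluronan, was at 115.36, 116.62 and 116.19 RPKM in ULAs and 158.76, 162.50 and 124.87 in DLAs. All DLA values of Itih3 were above all ULA values, with a difference of -0.35 and a limma adjusted p of 0.153, which was 0.0104 without brain 3. Of 8 genes of the cytokine response that induces Ptx3, 3 were tested. Nfkbia, the inhibitor of NF-kappaB that is itself a target of it, was at 34.75, 43.72 and 30.12 RPKM in ULAs and 44.91, 60.08 and 32.82 in DLAs, lower in the ULAs of each brain (difference -0.31, limma adjusted p = 0.197, and 0.0418 without brain 3). Tnf and Ccl2 were at 0 in all libraries.

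Nptx2 is known as an activity-regulated gene in neurons, and 6 of 13 genes of that kind were tested with 0 calls. Fosb and Npas4 were at 0 in all libraries. Ntrk2, the receptor of the neurotrophin Bdnf, was the most abundant at 181.32, 165.78 and 175.88 RPKM in ULAs and 148.48, 148.39 and 153.50 in DLAs, without overlap (difference 0.21, limma adjusted p = 0.287). Bdnf itself had the widest difference at -0.31 (limma adjusted p = 0.359), opposite in sign to that of Nptx2. The other 5 tested genes had differences of 0.03 to 0.21, and the median of the list was 0.12. Of the C1q-related synaptic organizers, 7 of 8 were under 1 RPKM, and only the adhesion receptor Adgrb3 (listed under its older name Bai3) was tested, with a difference of 0.09 (limma adjusted p = 0.792).

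**Figure D5:**
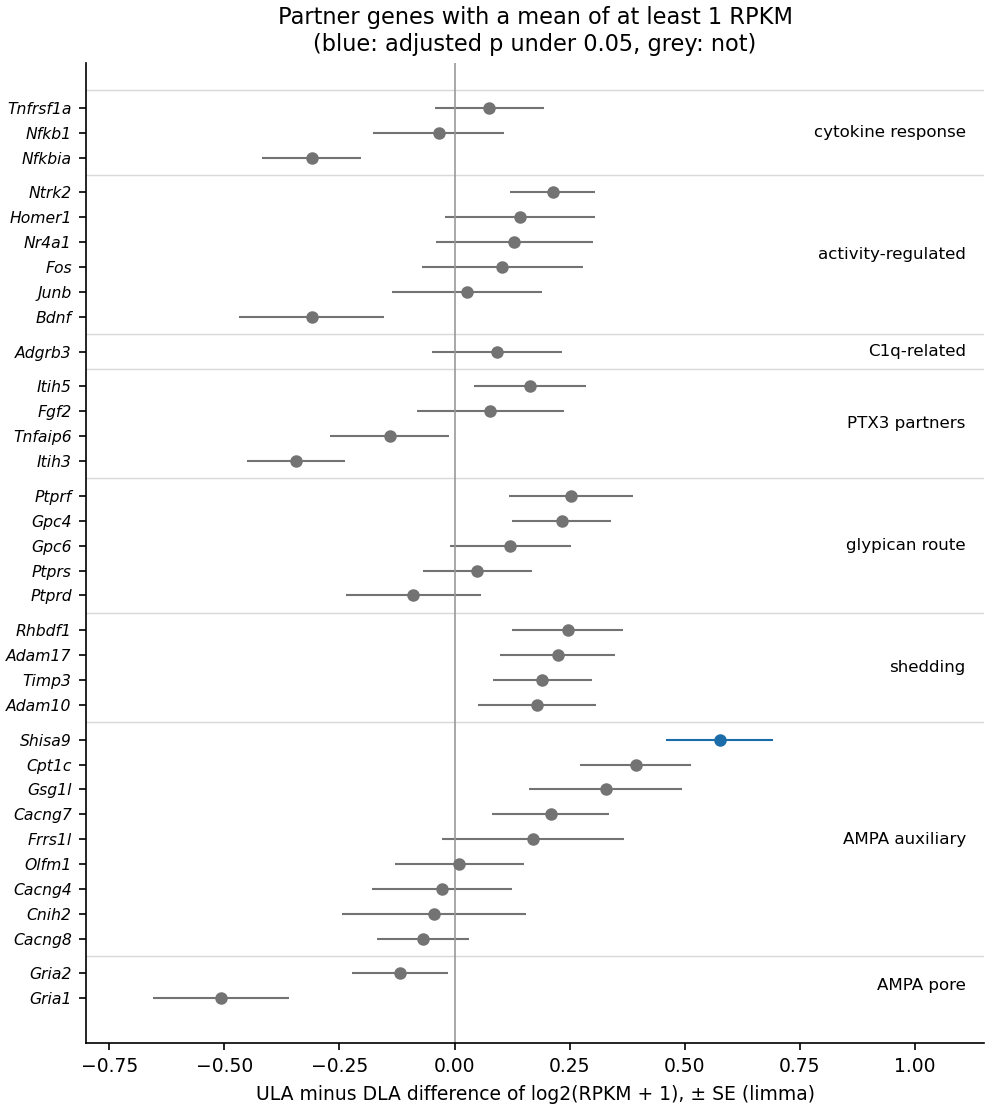
Upper minus deep difference of log2(RPKM + 1) with its SE from limma (n = 3 brains) for the 34 tested genes of the pathway lists, grouped by list, in blue at an adjusted p under 0.05 and in grey otherwise. Shisa9, at 0.58, is the only blue point, and all others lie between -0.51 and 0.39.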

How the data were processed

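RNA of sorted astrocytes was amplified with SMART-Seq v4, made into Nextera XT libraries and sequenced from a single end over 36 bases. The authors deposited RPKM values, cut off after 2 decimals, with the mRNA length of each row. The submitters' processing notes name bcl2fastq 1.8.4, CASAVA 1.8.2 and the mm9 build. The aligner and the counting program are not given in the sources used here. In rows no longer than 500 bases, RPKM moves in whole steps of a read, which gave the depth, and reads per row follow from it. The count test was not run, because the rows overlap.

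Rows with a mean of at least 1 RPKM (13999) were compared as log2(RPKM + 1) with limma 3.58.1 in R 4.3.3, with terms for layer and brain, an intensity trend and 2-sided tests adjusted by Benjamini-Hochberg. Replicate numbers were taken as brains, as the study's supplementary tables head them, and same-numbered libraries deviated together (r of 0.42, 0.33 and 0.34, against -0.20 to -0.16 for other pairs). With the pairs kept, an exact permutation test of 3 brains cannot give a p-value under 0.25, so none was used. The fit was tested on simulated data. Python 3.11.15 with numpy 2.4.6, pandas 2.3.3, scipy 1.17.1 and matplotlib 3.10.9 was used for the rest.

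Members and lists were chosen with earlier results of these data known, and 7 list genes were matched by an older symbol. Named genes were the members, list genes that passed, the most abundant and the most different tested gene of each pathway list, the Gria genes, Adam17 and the 5 profiles nearest to Nptx2. Also named were some genes of the marker lists, some list genes at 0 in all libraries, unmatched genes and neighbouring rows. The alternatives were no brain term, a pseudocount of 0.1, no filter, a mean of at least 5 RPKM, median centring, quantile normalization, a length correction (loess, span 0.5), no trend, and each brain left out.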

Additional observations from a re-analysis of the deposited data

How the results depend on the processing

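The Nptx2 difference of 1.85 was 1.74 to 1.98 with a brain left out and at most 1.94 otherwise, with a pseudocount of 0.1. With that pseudocount the difference of Nptx1 was 0.52 against 0.13 that of Nptxr 0.13 against 0.01 and that of Ptx3 0.31 against 0.15, since their levels lie below the usual pseudocount of 1. With a brain left out, Nptx1 ran from 0.06 to 0.21, Ptx3 from 0.05 to 0.30 and Nptxr from -0.04 (without brain 3) to 0.06, and Nptxr was -0.05 after the length correction. Quantile normalization gave a value for Nptx2 alone, since the other members fell under the RPKM minimum. Without the replicate block (the pairing by brain), 23 of all rows were higher in ULAs and 18 in DLAs, against 100 and 128, and 0 of the pathway genes passed in either direction. The block changed no other pathway call than that of Shisa9. Without a filter on low RPKM, limma called 0 rows in each direction (1124 and 1675 at an unadjusted p under 0.05) and 0 pathway genes in either (14 at an unadjusted p under 0.05). Without a variance trend 65 rows were higher in ULAs and 79 in DLAs, and after the length correction 76 and 77. In both, 0 pathway genes passed (7 and 8 at an unadjusted p under 0.05, with 815 higher and 1266 lower in ULAs over all rows for the former and 965 and 923 for the latter). With a brain left out, rows higher in ULAs numbered 104 to 426 and rows higher in DLAs 126 to 687, with the highest counts without brain 3, and pathway genes 0 to 1 and 0 to 2. The 2 were Nfkbia and Itih3, without brain 3. The cause of these changes was not tested. Few reads limit Nptx1, Nptxr and Ptx3, with 54 to 106 per layer.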
